A study of Mus musculus with 6 samples.

Results

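Indian hedgehog and parathyroid hormone-related protein (PTHrP) form the feedback loop that sets how fast chondrocytes of the growth plate mature. The loop is described here through 9 genes, chosen by name from the deposited gene table: Ihh and Pthlh, which encode the ligands, Pth1r, Ptch1, Hhip and Smo, which encode receptors and membrane partners, and the transcription factor genes Gli1, Gli2 and Gli3. All 9 were found once each among 26969 genes. They were measured by poly(A)-selected RNA sequencing of chondrocytes, the cartilage cell type, from mice of genotype wt. The libraries form 2 groups of 3, mAC_Mito and mAC, named after the description field and the column headers. The title and treatment fields call the mAC_Mito libraries vehicle and the mAC libraries mitochondrial, whereas the description field places the word Mito on the other group. The series title is about mitochondria of osteocytes and what they do to chondrocytes. Since the labels disagree, each difference is given as mAC_Mito over mAC and none as an effect of mitochondria. No label gives age, strain, culture conditions or dose, or says whether the 3 libraries of a group came from separate cultures, so p-values measure only the spread between these libraries. The extraction protocol speaks of an adipose type where cartilage would be meant.

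Hedgehog ligand binds Patched-1, the product of Ptch1, and thereby releases Smoothened, the product of Smo, which signals through the primary cilium to the GLI transcription factors. GLI2 acts mainly as an activator and GLI3 mainly as a repressor when no ligand is present, while Gli1, Ptch1 and Hhip are themselves transcribed in response to the signal. In the growth plate Ihh comes from prehypertrophic chondrocytes and maintains Pthlh expression near the joint surface, and PTHrP acts on Pth1r in proliferating chondrocytes to delay hypertrophy and, with it, Ihh expression.

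The RNA of the loop came almost wholly from its receiving side. Both ligands were at the edge of detection, at no more than 0.0681 FPKM (the authors' value, fragments scaled to gene length and library size) for Ihh and 0.0787 FPKM for Pthlh in any library. Smo and Pth1r were far more abundant, averaging 31.4 and 8.55 FPKM over the 6 libraries. None of the 7 members with enough counts for a test passed it between mAC_Mito and mAC. The widest departures from 0 among the better measured members were those of Gli3 and Gli2, which were highest in mAC_Mito 2 and 3 and not in mAC_Mito 1.

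The promoters of 4 members are shown because they set both ligand genes, with next to no RNA, beside the target Ptch1 and the factor Gli3, which gave more RNA. Each line runs 5′ to 3′ from 250 bases before to 50 bases after the RefSeq start of transcription on GRCm38.p6, with CpG dinucleotides in capitals. They lie at chr1:74951623-74951922 (minus strand, Ihh), chr6:147263964-147264263 (minus, Pthlh), chr13:63565686-63565985 (minus, Ptch1) and chr13:15463473-15463772 (plus, Gli3).
Ihh: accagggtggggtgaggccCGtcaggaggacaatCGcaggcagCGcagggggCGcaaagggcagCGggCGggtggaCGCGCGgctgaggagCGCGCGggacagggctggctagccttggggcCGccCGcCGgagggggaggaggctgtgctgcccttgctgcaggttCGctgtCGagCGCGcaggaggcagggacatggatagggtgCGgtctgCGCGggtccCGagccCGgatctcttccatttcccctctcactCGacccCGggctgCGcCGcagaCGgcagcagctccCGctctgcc
Pthlh: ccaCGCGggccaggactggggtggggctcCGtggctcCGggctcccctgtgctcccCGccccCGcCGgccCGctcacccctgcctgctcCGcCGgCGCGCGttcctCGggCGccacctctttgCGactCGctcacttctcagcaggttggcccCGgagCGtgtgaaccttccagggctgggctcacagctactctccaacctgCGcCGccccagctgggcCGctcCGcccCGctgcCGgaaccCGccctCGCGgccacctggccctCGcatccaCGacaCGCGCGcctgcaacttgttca
Ptch1: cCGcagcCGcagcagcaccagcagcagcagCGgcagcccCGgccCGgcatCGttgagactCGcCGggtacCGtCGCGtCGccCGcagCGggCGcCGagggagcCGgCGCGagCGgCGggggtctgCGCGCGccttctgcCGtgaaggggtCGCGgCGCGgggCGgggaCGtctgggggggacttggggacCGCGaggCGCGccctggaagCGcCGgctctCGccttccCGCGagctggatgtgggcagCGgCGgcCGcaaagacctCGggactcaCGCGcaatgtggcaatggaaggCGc
Gli3: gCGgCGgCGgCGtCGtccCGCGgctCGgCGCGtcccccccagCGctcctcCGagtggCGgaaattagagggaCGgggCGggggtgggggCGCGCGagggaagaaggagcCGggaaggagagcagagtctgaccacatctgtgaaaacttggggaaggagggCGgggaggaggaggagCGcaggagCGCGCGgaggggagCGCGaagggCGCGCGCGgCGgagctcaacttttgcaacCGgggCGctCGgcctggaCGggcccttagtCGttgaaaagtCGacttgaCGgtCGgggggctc
These windows held 30 CpG in Ihh, 33 in Pthlh, 47 in Ptch1 and 39 in Gli3, against a median of 7 over 32851 promoters of the same length. Their G and C content was 72.7% in Ihh, 74% in Pthlh, 76.3% in Ptch1 and 71% in Gli3, against a median of 52.7%. Smo, the member with the most RNA, had 17 CpG in its window, and the 3 entries of Pth1r had 5, 23 and 27, so both ligand promoters held more CpG than those of the 2 most abundant members. The core of the GLI binding site, TGGGTGG or CCACCCA on the other strand, was searched for as the only motif. It occurred in 9.3% of all promoters and in 0 of the 10 promoter entries of the members. Promoters were matched for 8 of the 9 members, Gli1 being the other. The Ptch1 and Gli3 windows lie wholly inside the deposited spans of their genes and not at their ends, as do the Pth1r entries with 23 and 27 CpG. The RefSeq start of Pthlh lies inside its span as well.

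The order of the members by level, each per kilobase, was Smo, Pth1r, Gli3, Ptch1, Gli2, Hhip, Gli1, Pthlh and Ihh. Each of the first 5 had a range over the 6 libraries that did not meet that of the next gene, whereas the ranges of Hhip, Gli1, Pthlh and Ihh overlapped from one to the next. By mean FPKM, 1429 genes of the table stood above Smo, 4622 above Pth1r, 8372 above Gli3, 10419 above Ptch1 and 11823 above Gli2. For the other members the number was 17732 for Hhip, 18718 for Gli1, 21075 for Pthlh and 21275 for Ihh. The loop thus spanned the table from its upper part to genes with almost no counts.

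**Figure D1:**
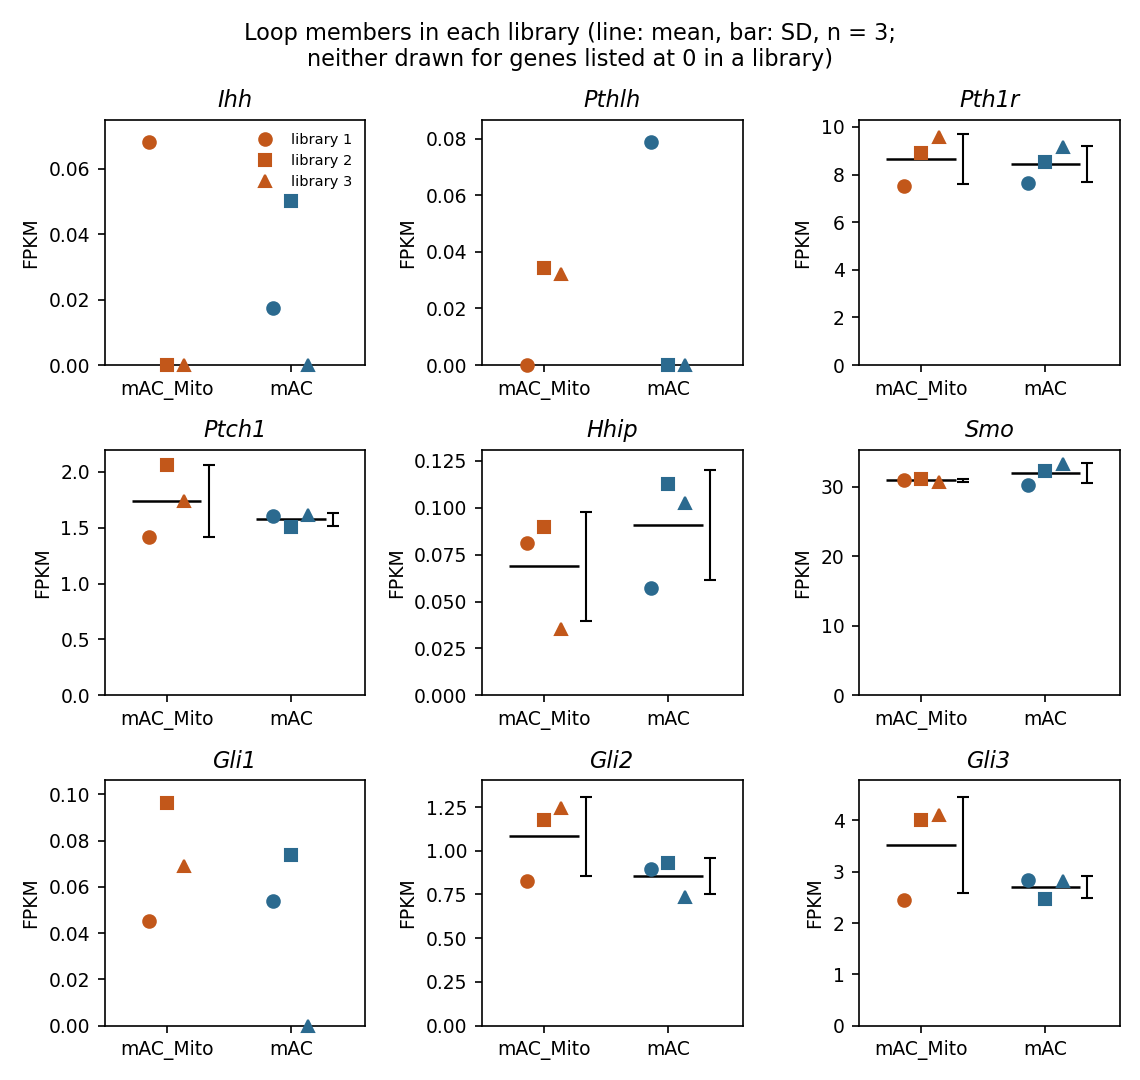
Level in FPKM (y axis, linear from 0, a separate scale for each gene) of the 9 members in the 3 mAC_Mito libraries (orange) and the 3 mAC libraries (blue). Symbols mark the library number, and libraries are not paired by it here. Ihh and Pthlh are listed at 0 in 3 libraries each, Gli1 is listed at 0 in mAC 3, and Gli3 is at 4.02 and 4.11 FPKM in mAC_Mito 2 and 3 against 2.46 to 2.84 FPKM in mAC.

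Ihh, the hedgehog ligand of cartilage (chromosome 1, 74945315 to 74951672, minus strand of GRCm38), had 16, 0 and 0 counts in mAC_Mito 1, 2 and 3, against 4, 13 and 0 counts in mAC 1, 2 and 3. In FPKM these were 0.0681, 0 and 0 in mAC_Mito and 0.0175, 0.05 and 0 in mAC. The sums over 3 libraries were 16 counts in mAC_Mito and 17 in mAC, so the few counts were split evenly and 3 of 6 libraries listed the gene at 0. Pthlh, which encodes PTHrP (chromosome 6, 147252101 to 147264183, minus strand), had 0, 4 and 4 counts in mAC_Mito and 9, 0 and 0 counts in mAC. Its sums were 8 counts in mAC_Mito and 9 in mAC. No library held counts of both ligands except mAC 1, with 4 for Ihh and 9 for Pthlh. Neither ligand passed the filter on low counts, so neither was tested in the main fit.

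The low values need care because the deposited counts may not be plain tallies of fragments. Over all genes and libraries a count of 4 occurred 4820 times and a count of 5 only 1610 times, a step that came back, smaller, between 8 (1968 times) and 9 (1312 times). Counts of 1, 2 and 3 occurred 4616, 3139 and 3009 times. A count of 4 may therefore stand for 1 sequenced fragment in some cases, and the 4 to 16 counts of Ihh for only a few. No counting interval is given for this reason. Gli1, the most direct transcriptional target of the pathway (chromosome 10, 127329882 to 127341974, minus strand), had 19, 33 and 25 counts in mAC_Mito 1, 2 and 3, against 20, 30 and 0 counts in mAC 1, 2 and 3. Among the 1385 genes with at least 10 counts in each of the other 5 libraries and a median there under 40, 21 (1.52%) were likewise listed at 0 in mAC 3. The same share ran from 0.720% to 2.64% in the libraries taken one at a time, so an isolated 0 at this level was not particular to Gli1.

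**Figure D2:**
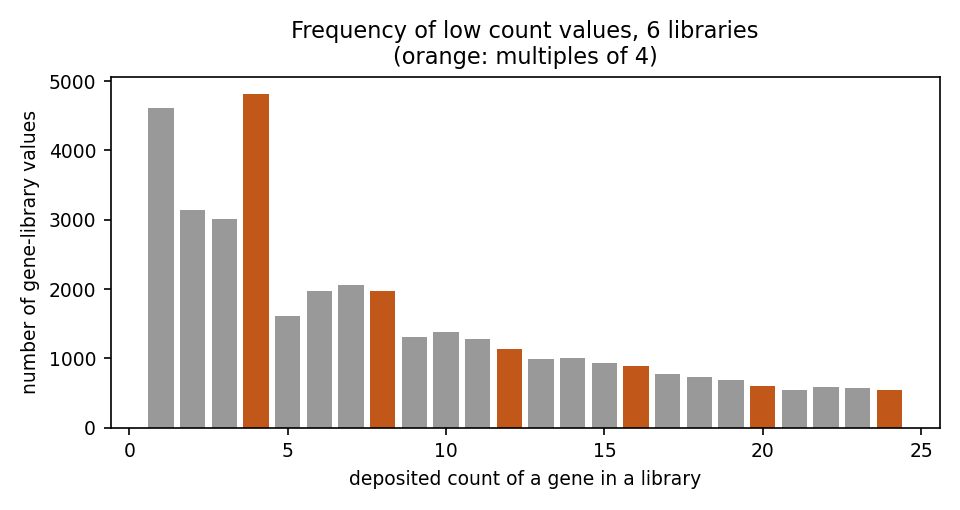
Number of gene-library values (y axis) at each deposited count from 1 to 24 (x axis), over all genes and 6 libraries; multiples of 4 are orange. The frequency drops from 4820 at a count of 4 to 1610 at a count of 5.

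Pth1r, the receptor of PTHrP and parathyroid hormone (chromosome 9, 110722085 to 110747145, minus strand), was at 7.52, 8.89 and 9.58 FPKM in mAC_Mito 1, 2 and 3, against 7.64, 8.53 and 9.15 FPKM in mAC 1, 2 and 3. The values interleaved between the groups. Its log2 fold change, mAC_Mito over mAC, was 0.017 with a standard error of 0.11 and a 95% interval of -0.22 to 0.26. The interval ended at 1.19-fold, and the value turned to -0.052 without mAC_Mito 3 and to -0.0060 without mAC 1. Smo, the membrane protein that starts hedgehog signalling inside the cell (chromosome 6, 29735503 to 29761365, plus strand), was the most uniform member. It was at 30.9, 31.1 and 30.7 FPKM in mAC_Mito and 30.3, 32.3 and 33.2 FPKM in mAC. In FPKM all 3 mAC_Mito values fell inside the range of mAC. In CPM (the count scaled to library size) mAC_Mito 2 and 3, at 194 and 196, were below the mAC range of 208 to 211. mAC_Mito 1, at 209 CPM, was inside it. The log2 fold change was -0.066 ± 0.086 (SE), with a 95% interval of -0.26 to 0.13, and it was -0.11 without mAC_Mito 1.

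Ptch1, the hedgehog receptor and a target of its own pathway (chromosome 13, 63508328 to 63573460, minus strand), was at 1.42, 2.06 and 1.74 FPKM in mAC_Mito 1, 2 and 3, against 1.61, 1.51 and 1.61 FPKM in mAC 1, 2 and 3. The mAC_Mito libraries held both the lowest value, in mAC_Mito 1, and the 2 highest. The log2 fold change was 0.11 ± 0.13 (SE), with a 95% interval of -0.18 to 0.40, and it was 0.21 without mAC_Mito 1, -0.00027 without mAC_Mito 2, 0.17 without mAC 1 and 0.066 without mAC 2. Hhip, a decoy that binds hedgehog ligands and is induced by them (chromosome 8, 79965851 to 80058006, minus strand), was at 0.0809, 0.0897 and 0.0356 FPKM in mAC_Mito and 0.0573, 0.113 and 0.103 FPKM in mAC. These levels rest on 23 to 81 counts a library. The groups overlapped, and the log2 fold change of -0.40 ± 0.43 (SE) had a 95% interval of -1.37 to 0.57. It was -0.087 without mAC_Mito 3, -0.23 without mAC 2 and -0.60 without mAC 1. The interval of Ptch1 ended at 1.32-fold, whereas that of Hhip ran from 0.386-fold to 1.49-fold.

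Gli3, whose protein is the main GLI repressor (chromosome 13, 15463235 to 15730026, plus strand), was at 2.45, 4.02 and 4.11 FPKM in mAC_Mito 1, 2 and 3, against 2.84, 2.46 and 2.82 FPKM in mAC 1, 2 and 3. mAC_Mito 2 and 3 were above every mAC library, and mAC_Mito 1 lay beside mAC 2, the lowest of them. The mean was 3.52 ± 0.931 FPKM in mAC_Mito and 2.71 ± 0.215 FPKM in mAC (SD, n = 3 each). Its log2 fold change of 0.35 ± 0.17 (SE), or 1.27-fold, had a 95% interval of -0.037 to 0.73 and an unadjusted edgeR p of 0.0713, the smallest of any member. The log2 fold change was 0.52 without mAC_Mito 1 (edgeR unadjusted p = 0.0029, adjusted p = 0.446) and 0.23 without mAC_Mito 3, and its smallest adjusted p under any alternative was 0.446.

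Gli2, whose protein is the main GLI activator (chromosome 1, 118834132 to 119053619, minus strand), was at 0.826, 1.18 and 1.25 FPKM in mAC_Mito 1, 2 and 3, against 0.895, 0.929 and 0.737 FPKM in mAC 1, 2 and 3. Again mAC_Mito 2 and 3 were above every mAC library, and mAC_Mito 1 was below mAC 1 and 2. The log2 fold change was 0.31 ± 0.18 (SE), with a 95% interval of -0.10 to 0.72, and it was 0.18 without mAC 3, 0.20 without mAC_Mito 3 and 0.44 without mAC_Mito 1. The ratio of Gli3 to Gli2 in FPKM was 2.97, 3.42 and 3.29 in mAC_Mito, against 3.17, 2.65 and 3.83 in mAC, so the 2 genes kept overlapping proportions in both groups. Gli1 had a log2 fold change of 0.66 ± 0.94 (SE), with a 95% interval of -1.44 to 2.76. Much of that value came with the library listed at 0, since it was 0.075 without mAC 3, against 0.42 without mAC_Mito 2 and 1.25 without mAC 2.

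By the quasi-likelihood test of edgeR none of the 7 tested members passed an adjusted p of 0.05, each having an adjusted p of 0.9999. Over all 17645 genes tested, 2 passed, or 0.0113%, with 1 higher and 1 lower in mAC_Mito (0.00567% each). At an unadjusted p under 0.05 the count was 0 of 7 members, against 563 genes or 3.19%, of which 2.1% of those tested were higher and 1.09% lower. DESeq2 and limma called 0 members too. In no member were the 3 mAC_Mito libraries all above or all below the 3 mAC libraries in CPM, the count scaled to library size, which happened for 8.31% of all genes tested (3.93% higher, 4.38% lower). In FPKM it happened for 0 members and for 7.31% of these genes (3.76% higher, 3.54% lower). Of the 7, 5 had a log2 fold change above 0, as did 50.4% of all genes, and their median was 0.11 against 0.0016 for all genes tested.

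**Figure D3:**
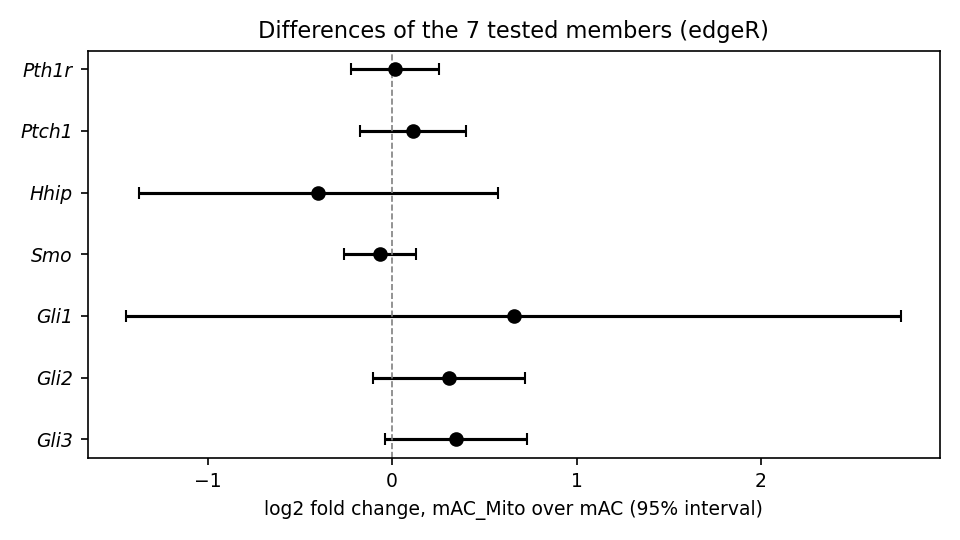
Log2 fold change, mAC_Mito over mAC (x axis), of the 7 tested members, with 95% intervals from edgeR (bars). Every interval includes 0; those of Smo, Pth1r and Ptch1 are narrow, and those of Gli1 and Hhip, the members with the fewest counts among the 7, are the widest.

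The spread of Gli3 and Gli2 within mAC_Mito ran alongside other genes. Col1a1, Col3a1, Thy1, Pdgfra and Dpt, markers of fibroblasts and perichondrium, were present in all 6 libraries (5 of 5 genes). Their summed level was 408, 804 and 740 FPKM in mAC_Mito 1, 2 and 3, against 526, 407 and 534 FPKM in mAC 1, 2 and 3. Like Gli3, this sum was highest in mAC_Mito 2 and 3 and lowest in mAC_Mito 1 and mAC 2. Col1a1 made up most of the sum, and Thy1 ran the other way, at 27.7 and 29.7 FPKM in mAC_Mito 2 and 3 against 38.4 FPKM in mAC_Mito 1. Dpt departed from the pattern as well, being highest in mAC 3 at 7.52 FPKM, against 6.42 and 5.93 FPKM in mAC_Mito 2 and 3. The 10 chondrocyte markers, all present in each library, summed to 2238, 3198 and 2982 FPKM in mAC_Mito and 2362, 2469 and 2760 FPKM in mAC. This sum too was highest in mAC_Mito 2 and 3 and lowest in mAC_Mito 1, so the pattern was not particular to the fibroblast list. Col2a1 was the largest part of this sum, at 951, 1662 and 1559 FPKM in mAC_Mito and 1099, 1026 and 1226 FPKM in mAC. Among the chondrocyte markers, Col9a1, Matn1 and Cnmd were instead highest in mAC 3, and Hapln1 in mAC 1. Comp and Sox9 departed in part. For Comp mAC 3 exceeded mAC_Mito 3 (202 against 195 FPKM), and for Sox9 mAC 1 exceeded mAC_Mito 2 (23.1 against 22.7 FPKM). The part of these cells, or of the libraries, in the values of Gli3 and Gli2 was not tested, and in bulk RNA a larger share of a cell type and more RNA per cell cannot be told apart. Markers of osteoblasts and osteocytes, of which 5 of 6 were in the table, summed to 0.439 to 0.544 FPKM in mAC_Mito and 0.401 to 0.592 FPKM in mAC. Among them Fgf23 was listed at 0 in 5 libraries and Sost in 4, and the list also held Bglap, Dmp1 and Phex. Other genes that osteoblasts express were outside this list, so its sum does not speak for them. Of these, Sp7, Ibsp and Alpl, named after their values were seen, averaged 3.63, 8.06 and 6.2 FPKM over the 6 libraries. Col1a1, counted above with the fibroblast markers, was at 271 to 634 FPKM. Leukocyte markers (6 of 6) summed to 65.9 to 109 FPKM in mAC_Mito and 59.8 to 76.4 FPKM in mAC, most of it Lyz2, while Ptprc did not exceed 0.0915 FPKM. Endothelial markers (5 of 5) summed to at most 0.369 FPKM in mAC_Mito and 0.312 FPKM in mAC. Adipocyte markers (4 of 4) summed to 30.6 to 35.8 FPKM in mAC_Mito and 24.6 to 34.8 FPKM in mAC, and skeletal muscle markers (5 of 5) to 34.5 to 38.0 and 25.6 to 38.4 FPKM in the same order.

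**Figure D4:**
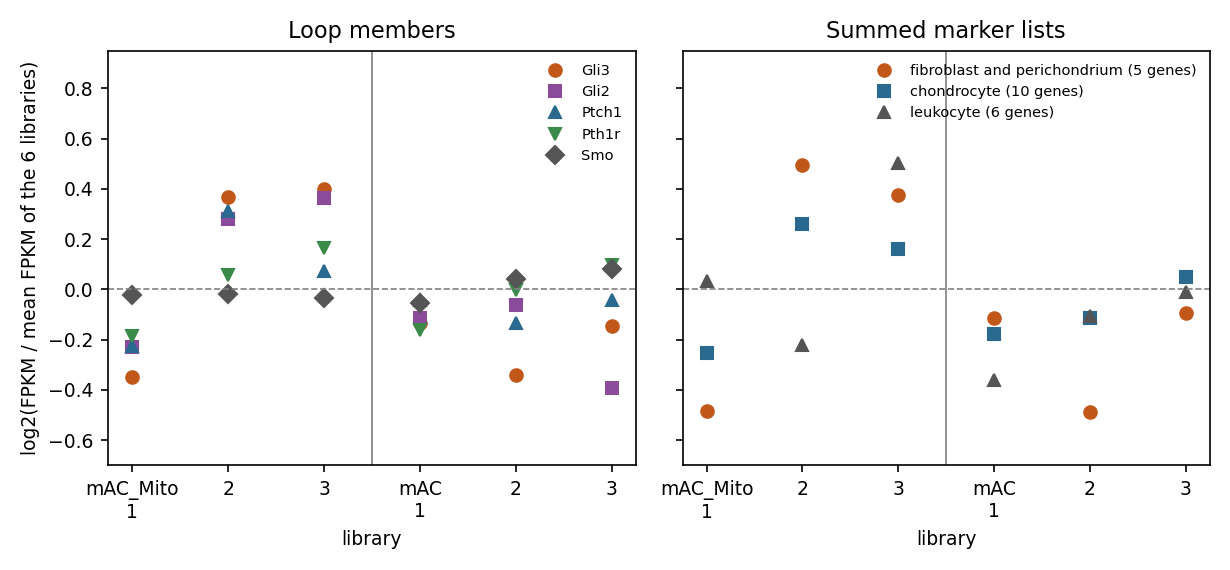
Log2 of the level in FPKM over the mean of the 6 libraries (y axis) in each library (x axis, mAC_Mito left of mAC), for 5 loop members (left) and for 3 summed marker lists (right). Gli3, Gli2, Ptch1 and the sums of the fibroblast and perichondrium markers and of the chondrocyte markers are highest in mAC_Mito 2 and 3. Smo stays close to 0 throughout.

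Around the members, 86 further genes of the 2 pathways were grouped by role; 83 were in the table and 81 were tested, while Shh, Pth and Pth2 were not analysed here. By edgeR 0 of the 81 rose and 0 fell at an adjusted p of 0.05. At an unadjusted edgeR p under 0.05 there were 5 (Scube2, Scube3, Gsk3b, Hdac5 and Sox6), each higher in mAC_Mito. Of all genes tested 3.19% had such a p (2.1% higher, 1.09% lower). DESeq2 called 0 as well. Log2 fold changes were above 0 for 55 and below 0 for 26, with a median of 0.069, against 50.4% of all genes above 0 and a median of 0.0016. In CPM the groups did not overlap for 6 of them, 5 higher (Scube2, Ccnd1, Foxf2, Gnaq and Hdac5) and 1 lower (Ift80) in mAC_Mito, against 8.31% of all genes tested (3.93% higher, 4.38% lower), so that 6 of 81 is a share close to the background. Of these Foxf2, Gnaq and Ift80 are named after their values were seen.

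Genes that make or release hedgehog ligands (8 listed, 7 tested) had a median log2 fold change of 0.18, with all 7 above 0. Dhh, the desert hedgehog ligand, named after its values were seen, had a mean of 0.0715 FPKM in mAC_Mito and 0.0665 FPKM in mAC, near the highest value of Ihh. Disp1, which releases lipid-modified hedgehog from the cell, was at 3.66 ± 0.578 FPKM in mAC_Mito and 3.39 ± 0.532 FPKM in mAC, and Hhat, which attaches the fatty acid, at 1.45 ± 0.0116 and 1.34 ± 0.0503 FPKM in the same order (SD, n = 3). Scube3, a secreted member of the family that helps hedgehog leave the cell, was at 4.35, 6.74 and 7.2 CPM in mAC_Mito 1, 2 and 3, against 3.25, 3.68 and 4.45 CPM in mAC 1, 2 and 3. Only mAC_Mito 1 reached into the range of mAC. Its log2 fold change was 0.68 ± 0.23 (SE; edgeR unadjusted p = 0.0136, adjusted p = 0.9999). Scube2, of the same family and named after its values were seen, was at 2.81, 3.19 and 3.79 CPM in mAC_Mito and 2.34, 2.26 and 1.93 CPM in mAC (log2 fold change 0.58 ± 0.21; edgeR unadjusted p = 0.0217, adjusted p = 0.9999). The median of this list was 0.46 without mAC_Mito 1, 0.35 without mAC 1, 0.12 without mAC_Mito 3, 0.092 without mAC 2 and 0.061 without mAC 3.

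Of the co-receptors and other surface binders (6 tested), Gas1, Cdon and Boc had levels well above Ptch1. Gas1, which presents hedgehog ligand to Patched-1, was at 38.2 ± 1.82 FPKM in mAC_Mito and 35.5 ± 1.2 FPKM in mAC, and Cdon and Boc, related surface proteins with the same role, were at 15.9 ± 3.3 and 14.8 ± 1.49 FPKM in mAC_Mito and at 13.5 ± 0.861 and 12.5 ± 0.961 FPKM in mAC (SD, n = 3). The median log2 fold change was 0.040, with 3 genes above and 3 below 0.

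Genes of the primary cilium and of GLI processing (15 tested) had a median log2 fold change of 0.089, with 11 above 0. Prkaca and Csnk1a1, kinases that phosphorylate GLI proteins, were at 32.3 ± 3.44 and 29.6 ± 1.35 FPKM in mAC_Mito and at 29.6 ± 3.26 and 30.03 ± 2.5 FPKM in mAC (SD, n = 3). Gsk3b, another such kinase, had a log2 fold change of 0.26 ± 0.11 (SE; edgeR unadjusted p = 0.0438, adjusted p = 0.9999). The median was 0.037 without mAC_Mito 3 and 0.047 without mAC_Mito 2.

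Among 10 further hedgehog targets 8 were tested, with a median log2 fold change of 0.062, and Mycn and Osr2 did not pass the filter on low counts. Ccnd2 and Ccnd1, cyclins that drive entry into the cell cycle, were at 54.1 ± 7.01 and 43.7 ± 3.2 FPKM in mAC_Mito and at 49.0 ± 5.3 and 40.2 ± 2.34 FPKM in mAC (SD, n = 3). In CPM the Ccnd1 libraries did not overlap, with 228, 244 and 236 CPM in mAC_Mito 1, 2 and 3, against 221, 217 and 223 CPM in mAC 1, 2 and 3, a log2 fold change of 0.099. In FPKM they overlapped, at 40.3 to 46.6 in mAC_Mito and 37.9 to 42.6 in mAC. Foxf1, a forkhead factor, had a log2 fold change of -0.23 ± 0.15 (SE).

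On the PTHrP side, the only further receptor or ligand tested was Pth2r, at up to 0.055 FPKM in mAC_Mito and 0.136 FPKM in mAC. The 20 genes that carry the signal of Pth1r had a median log2 fold change of 0.054, with 14 above and 6 below 0, and of 0.014 without mAC 3, 0.023 without mAC 2 and 0.13 without mAC 1. Gnas, which encodes the stimulatory G protein, was at 112 ± 4.14 FPKM in mAC_Mito and 109 ± 1.72 FPKM in mAC, and Gna11, of the G protein class that activates phospholipase C, at 24 ± 1.67 and 23.6 ± 1.41 FPKM in the same order (SD, n = 3). Hdac5, a histone deacetylase that restrains MEF2 factors, was at 52.3, 49.5 and 56.5 CPM in mAC_Mito 1, 2 and 3, against 42.4, 47.1 and 44.7 CPM in mAC 1, 2 and 3. Its groups did not overlap, and its log2 fold change was 0.24 ± 0.098 (SE; edgeR unadjusted p = 0.0364, adjusted p = 0.9999).

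Of the 15 regulators of the ligands and of chondrocyte maturation, 10 were above 0, with a median log2 fold change of 0.051 that ranged, with 1 library left out, from 0.0034 without mAC 3 to 0.25 without mAC 1. Atf4, a transcription factor that acts on Ihh, was at 167 ± 7 FPKM in mAC_Mito and 165 ± 18.9 FPKM in mAC, the highest level of this list. Bmpr1a, a receptor for bone morphogenetic proteins, was at 25.6 ± 0.714 FPKM in mAC_Mito and 26.2 ± 1.08 FPKM in mAC (SD, n = 3). Sox6, which works with Sox9 on cartilage genes, was at 70.1, 95.7 and 81.0 CPM in mAC_Mito 1, 2 and 3, against 72.8, 60.9 and 65.6 CPM in mAC 1, 2 and 3. As for Gli3, mAC_Mito 2 and 3 were above every mAC library and mAC_Mito 1 was not. Its log2 fold change was 0.31 ± 0.13 (SE; edgeR unadjusted p = 0.0386, adjusted p = 0.9999).

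The 9 hypertrophy genes, whose onset the loop delays, had a median log2 fold change of 0.059, with 5 above and 4 below 0, and it turned to -0.059 without mAC 3 and -0.049 without mAC_Mito 3 and was 0.014 without mAC_Mito 1. Spp1, which encodes the matrix protein osteopontin, was at 2079 ± 116 FPKM in mAC_Mito and 2343 ± 177 FPKM in mAC, and Mmp13, a collagenase, at 47 ± 3.43 and 52.3 ± 2.37 FPKM in the same order (SD, n = 3). Their log2 fold changes were -0.19 ± 0.11 and -0.17 ± 0.11 (SE). Col10a1, the collagen of hypertrophic cartilage and named after its values were seen, was at 15.1 ± 1.67 FPKM in mAC_Mito and 13.9 ± 1.12 FPKM in mAC. Phospho1, a phosphatase of mineralising cartilage named after its values were seen, was at 1.79 ± 0.23 FPKM in mAC_Mito and 1.39 ± 0.15 FPKM in mAC (SD, n = 3). These 4 genes were present in every library, those that listed Ihh at 0 included.

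**Figure D5:**
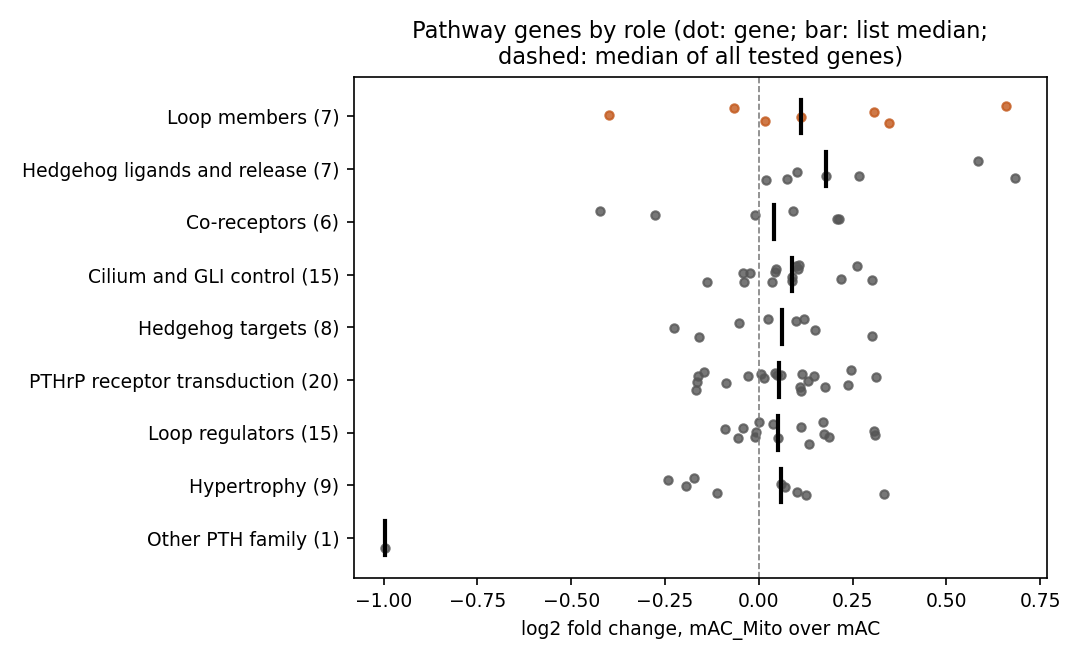
Log2 fold change, mAC_Mito over mAC (x axis), of every tested gene by role (rows, number tested in brackets); black bars are list medians and the dashed line is the median of all 17645 tested genes. List medians lie between 0.040 and 0.18 except in the last row, which holds Pth2r alone.

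Whether the induced transcripts followed the ligand across libraries could hardly be examined, because Ihh was listed at 0 in 3 of 6. In log2 CPM, Pearson's r between Ihh and Ptch1 was -0.65 (exact permutation p = 0.158) and Spearman's rho was -0.70 (exact permutation p = 0.167). On the log2(FPKM + 1) scale r was -0.77 (exact permutation p = 0.0583, adjusted p = 0.233) and rho -0.94 (exact p = 0.0167, unadjusted). In log2 CPM r was -0.042 without mAC_Mito 1 and mAC 2, the libraries farthest from the median of Ihh. With Gli1 r was 0.31 (exact permutation p = 0.783) and rho -0.15 (exact p = 0.833), and r was 0.24 without those 2 libraries and -0.65 without mAC 3. With Hhip r was 0.39 (exact permutation p = 0.517) and rho 0.15 (exact p = 0.833), and r turned to -0.076 without them. With Pthlh r was -0.37 (exact permutation p = 0.4) and rho -0.35 (exact p = 0.525), and r turned to 0.70. Without those 2 libraries only mAC 1, with 4 counts, listed Ihh above 0, so each r found without them rests on mAC 1. After Benjamini-Hochberg adjustment over the 4 relations the exact p-values ran from 0.633 to 0.783.

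Genes near in pattern were sought by root mean square difference in log2 CPM, each gene centred on its mean of 6 libraries. The 10628 candidates were tested genes with a mean of at least 1 FPKM and a symbol neither starting with Gm nor ending in Rik. Genes at levels as low as that of Gli1 were thus left out. The nearest to Gli1 were Rpl30-ps8, a ribosomal protein pseudogene, at 0.22 and Zfp125 at 0.51. Rpl30-ps8 was at 10.9, 17.5 and 13.3 FPKM in mAC_Mito 1, 2 and 3, against 8.92, 10.4 and 1.005 FPKM in mAC 1, 2 and 3, and so had its low value in mAC 3 like Gli1. The nearest to Ihh were Rnasek at 0.72 and Rps15-ps3 at 0.82, and to Pthlh Bicra at 0.64 and Polr2a at 0.66. Those differences were large beside the root mean square spread of Ihh (1.35) and Pthlh (1.02) themselves, whereas that of Gli1 was 1.42.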

How the data were processed

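The members and gene lists were chosen with earlier results of these data known. The authors deposited, per the file headers, 1 table with an estimated count per gene and an FPKM value per gene for each library; whether the counts are tallies is not stated, and their steps at multiples of 4 led to their treatment as estimated, already whole, counts. Bowtie 0.12.2, HISAT2 2.0, StringTie 1.3.0 and the build mm8 are listed, without roles, per the submitters' processing notes; coordinates match GRCm38 instead (99.7% of 26902 shared identifiers have at least 1 end as in GENCODE M21). Counts per library summed to 60151766 to 63700612 in mAC_Mito and 59116068 to 68378213 in mAC. Strand use is not given in the sources used here. Genes overlapping members had at most 83 counts in a library. Arhgap9, which overlaps Gli1 on the opposite strand, had 14 to 25 counts, against 0 to 33 for Gli1, and its part in the Gli1 counts was not tested.

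Counts were tested with edgeR 4.0.16 (R 4.3.3; filterByExpr, minimum count 10, minimum total 15; TMM; quasi-likelihood; 17645 genes; two-sided, Benjamini-Hochberg over all). Standard errors follow from the F statistic. Log2 CPM used a prior count of 2. Alternatives were other scalings and filters, DESeq2 1.42.0, limma 3.58.1 on log2(FPKM + 1) or log2(FPKM + 0.1), a replicate block, leaving out each library, and, chosen after seeing the data, counts divided by 4. The edgeR step was tested on simulated data, with changes set only in genes with many counts and larger than those of the members. That test does not cover low counts or small differences. No 2 libraries of a group agreed within sampling noise (chi-square per degree of freedom of at least 25.2). Genes named beyond the members are, per list, any called gene, the 2 with the highest mean FPKM and the 1 with the lowest p, plus the nearest to Ihh, Pthlh and Gli1 in pattern, unless stated.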

Additional observations from a re-analysis of the deposited data

How the results depend on the processing

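No member and none of the 81 pathway genes passed under any alternative run, which were 15 in all. This includes Ihh and Pthlh in the run without a filter on low counts, where both were tested. The log2 fold changes of Gli1, Gli2 and Gli3 stayed above 0 and those of Smo and Hhip below 0 in every alternative run in which the gene was tested. Pth1r turned to -0.052 without mAC_Mito 3 and -0.0060 without mAC 1 (range -0.052 to 0.074 with 1 library left out), and Ptch1 to -0.00027 without mAC_Mito 2 (range -0.00027 to 0.21). Over all genes, 1 rose and 1 fell. This became 0 and 0 without a filter on low counts, 2 and 2 with DESeq2, 1 and 0 with limma on log2(FPKM + 1), and 0 to 3 and 0 to 1 with 1 library left out (0 and 0 without mAC_Mito 1 or mAC_Mito 3, 3 and 1 without mAC_Mito 2 or mAC 3). The cause was not tested. The replicate block also gave 1 and 1. Same-numbered libraries correlated at 0.12, -0.060 and -0.012 in their deviations from the group means, within the -0.14 to 0.15 of the other pairs. No pairing by number was seen, but so few libraries cannot exclude one. The r of Ihh ranged from -0.88 to -0.51 with Ptch1 (without mAC 3 and without mAC_Mito 1), from -0.65 to 0.53 with Gli1, being lowest without mAC 3, from 0.033 to 0.61 with Hhip and from -0.67 to -0.15 with Pthlh when 1 library was left out. Without the 2 farthest libraries, where only mAC 1 listed Ihh above 0, r turned to -0.076 with Hhip and 0.70 with Pthlh. Depth limits Ihh, Pthlh, Gli1 and Hhip; Gli1 was not tested with counts divided by 4, nor Gli1, Gli2 and Hhip where FPKM of at least 1 in 3 libraries was required.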
